A study of Mus musculus with 71 samples.

Results

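The cells described here are a class of γδ intraepithelial lymphocytes (γδ IELs), the T cells that lie between the epithelial cells of the gut, picked out by Gzmk, Scin and Il7r transcripts. Members were chosen in 6 single-cell tables by a rule on measured values. A cell needed at least 500 detected genes, at least 5 unique molecular identifiers (UMIs, each marking 1 captured RNA molecule) of Cd3d, Cd3e and Cd3g together, and at least 2 UMIs of Scin, Gzmk and Il7r together. That last sum also had to exceed both the sum of Spp1, Fcgr3 and Tyrobp and the sum of Tgm2, Batf3, Tcf7 and Id3. The rule found 5535 members among 23644 T cells and 23994 barcodes, which is 23.4% of the T cells. By the same kind of rule, 9256 T cells belonged to an Fcgr3 Tyrobp Spp1 class, 3839 to a Tcf7 Id3 Batf3 class, and 5014 to neither.

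The study asked what the loss of Btnl2, a butyrophilin-like protein of the intestinal epithelium, does to γδ IELs along the small intestine. Btnl2-KO mice carried LacZ in frame with the start codon of Btnl2 together with a selection cassette, and WT mice were their cohoused C57BL/6 littermates. The labels give an age of 8 to 10 weeks for the single-cell libraries and of 10 weeks for the bulk libraries, and name no treatment. CD45+ TCRβ- TCRγδ+ cells were sorted from the duodenum, jejunum and ileum of each genotype, and 1 5′ single-cell library was made for each of the 3 segments and 2 genotypes from a pool of mice. The larger part of the same sorted samples went into 22 bulk libraries, so the bulk and single-cell values share their mice. The 3 segments of a genotype come from the same pool, so the single-cell data hold 1 pool per genotype and give no test of the genotype.

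Granzyme K is a serine protease of cytolytic granules. Scinderin, the product of Scin, is a calcium-dependent actin-severing protein of the gelsolin family. Il7r encodes the α chain of the interleukin-7 receptor, which pairs with the common γ chain and signals through Jak1, Jak3 and Stat5, and Cd6 encodes a scavenger-receptor family coreceptor of T cells related to CD5. γδ IELs are long-lived residents of the gut epithelium, are rich in granzymes, carry integrin αE, and depend on interleukin-15, read through Il2rb, more than on interleukin-7.

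The libraries held 3641 to 4696 barcodes and 19262295 to 28156801 UMIs. Median depth of the members was 4929 to 5561 UMIs and 2008 to 2133 genes per cell, close to the 5127 to 5657 UMIs of the Fcgr3 Tyrobp Spp1 cells. The Tcf7 Id3 Batf3 cells had medians of 4770 to 5620 UMIs. T cells that fell in no class lay below the members in every library, at 4116 to 4942. Of 23626 distinct barcodes, 367 occurred in more than 1 library. Btnl2 gave 27, 11 and 6 UMIs in the WT duodenum, jejunum and ileum and 0, 1 and 0 in the KO libraries, while LacZ gave 16, 11 and 21 UMIs in the KO libraries and 0 in each WT library, so the genotype labels held. The label of the class could be checked only in part. Cd3e was found in 100% of members of every library, but the rule asked for Cd3 UMIs, so this is no check. The IEL gene Itgae, which the rule did not use, was found in 96.5% to 98.1% of members. T cell receptor constant genes were not analysed here, so the γδ identity of the cells rests on the sort. Of the αβ T cell markers measured, at least 2 Cd4 UMIs were found in 0 to 2 members per library, and at least 2 Cd8b1 UMIs in 5.30% to 6.48% of members against 1.19% to 2.45% of the other T cells. Among B cell markers Ms4a1 and Pax5 were at 0 in the members, but Cd79b stood at 103 to 115 CPM (UMIs of the gene per 1000000 UMIs of the summed cells) against 83.7 to 92.8 in the other T cells. Ighm stood at 120 and 122 CPM in the WT and KO duodenum members against 208 and 209 in the other T cells, and the part of B cell RNA in the results was not tested. Also at 0 were the plasma cell genes Jchain and Mzb1 and the myeloid genes Lyz2 and Adgre1. Zero UMIs among 5535 members allow a share of cells with a UMI of up to 0.0542%. All intervals and limits of this kind cover counting error only.

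Members made up 26.1% of T cells in the WT duodenum (1030 of 3953, 95% exact binomial interval 24.7% to 27.5%), 24.6% in the WT jejunum (882 of 3592, 23.2% to 26.0%) and 27.2% in the WT ileum (1008 of 3703, 25.8% to 28.7%). In the KO libraries they made up 18.8% in the duodenum (740 of 3931, 17.6% to 20.1%), 21.3% in the jejunum (811 of 3807, 20.01% to 22.6%) and 22.8% in the ileum (1064 of 4658, 21.6% to 24.1%). The KO share was below the WT share in each of the 3 segments, and the 2 intervals of a segment did not overlap. With 1 pool of mice per genotype this difference has no replicate check. Gzmk, 1 of the genes that set the share, was also lower over all T cells of the KO libraries, at 169, 167 and 146 CPM against 224, 217 and 194 in WT. Scin differed less, at 75.5, 71.8 and 61.3 in KO against 78.0, 75.2 and 72.7 in WT. When cells were thinned to 1500 UMIs the shares were 11.9%, 10.9% and 10.6% in WT and 8.55%, 8.46% and 8.24% in KO.

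**Figure D1:**
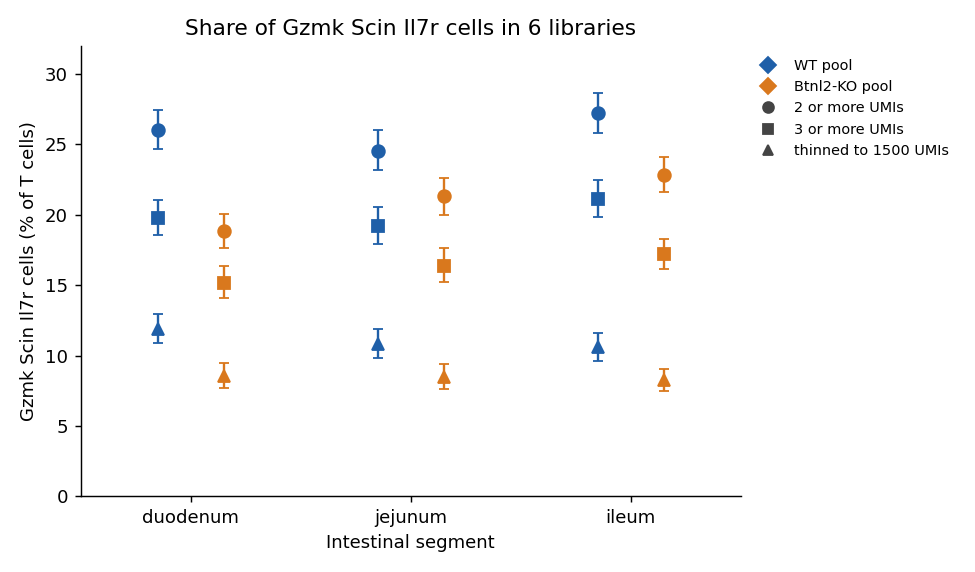
Share of Gzmk Scin Il7r cells among T cells (percent, vertical axis) by intestinal segment in WT (blue) and Btnl2-KO (orange) libraries, with circles for the rule as given, squares for a minimum of 3 UMIs, triangles for cells thinned to 1500 UMIs, and bars for 95% exact binomial intervals. The KO share lies below the WT share in all 3 segments under each of the 3 settings, for example 18.8% against 26.1% in the duodenum by the rule as given.

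The members were not a sharp group at their edge. Their median sum of Scin, Gzmk and Il7r UMIs was 4 in each library. Just inside the threshold, 1258 members had a sum of 2, while 1880 had 3 or 4 and 2397 had 5 or more. Just outside it, 3771 T cells had a sum of 1, 226 tied with another class sum, and 1638 had a sum of 2 or more but a higher sum of another class.

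Gzmk was the most abundant of the rule genes. It stood at 634, 625 and 572 CPM in members of the WT duodenum, jejunum and ileum and at 624, 550 and 477 in KO. Scin stood at 232, 233 and 222 in WT and at 268, 241 and 200 in KO. Il7r was the lowest, at 91.8, 89.3 and 119 in WT and 90.7, 96.6 and 144 in KO, and both ileum libraries lay above the other 4. These levels chose the cells and are given as a description. They are not corrected for gene length, because 5′ libraries count molecules. Gzmk was not limited to the members, with 68.4 to 115 CPM in the Fcgr3 Tyrobp Spp1 cells and 3.32 to 7.18 in the Tcf7 Id3 Batf3 cells. Il7r had the other order, with 1.47 to 6.19 in the former and 18.4 to 38.5 in the latter.

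**Figure D2:**
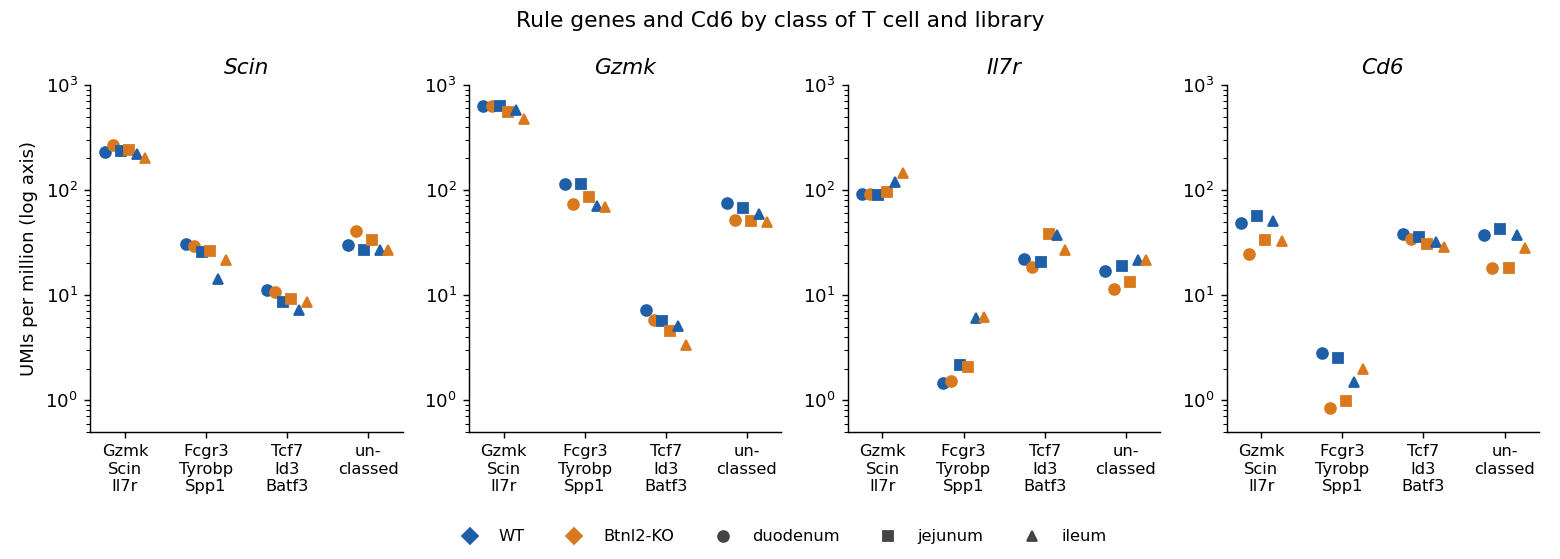
CPM (log axis) of Scin, Gzmk, Il7r and Cd6 in 4 classes of T cell, 1 point per library, with WT in blue, Btnl2-KO in orange, circles for duodenum, squares for jejunum and triangles for ileum. Gzmk lies at 477 to 634 in the Gzmk Scin Il7r cells and at 3.32 to 7.18 in the Tcf7 Id3 Batf3 cells, and Cd6 lies at 24.4 to 56.1 in the former and 28.8 to 38.3 in the latter.

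Most members were led by Gzmk. It had the highest UMI count of the 3 genes in 64.1%, 63.3% and 60.1% of members of the WT duodenum, jejunum and ileum and in 62.7%, 59.4% and 52.9% in KO. Scin led in 16.5% to 20.6% of members and Il7r in 4.31% to 10.9%, with the 2 highest Il7r values in the ileum, at 8.13% in WT and 10.9% in KO. All 3 genes were found together in 9.90% to 14.3% of members, and Gzmk with Scin but without Il7r in 30.5% to 41.5%. Over all T cells thinned to 1500 UMIs, Gzmk was found in 42.2% of 398 cells with a Scin UMI and in 21.0% of the cells without one in the WT duodenum, and in 31.2% of 362 and 14.04% in the KO ileum.

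The members led by Il7r differed from those led by Gzmk or Scin in genes outside the rule and inside it. Tcf7, a transcription factor of naive and memory T cells, stood at 53.8 to 84.0 CPM in Il7r-led members and at 4.08 to 11.6 in Gzmk-led and Scin-led members. Thy1 stood at 528 to 814 in Il7r-led members and 262 to 357 in Gzmk-led members. Gzmb went the other way, with 3307 to 6021 in the Il7r-led cells, 7045 to 10672 in the Gzmk-led cells and 8650 to 12270 in the Scin-led cells. Il2rb, the β chain shared by the interleukin-2 and interleukin-15 receptors, stood at 59.1 to 164 in the Il7r-led and 215 to 279 in the Gzmk-led members, and the signalling adaptor Fcer1g at 373 to 833 and 1073 to 1250. For these 5 genes the Il7r-led range did not overlap the Gzmk-led one. It overlapped the Scin-led range in Fcer1g, which stood at 760 to 1211 in Scin-led members. Cd6 ranges overlapped, at 15.6 to 79.6, 21.9 to 64.0 and 24.2 to 59.9 in Il7r-led, Gzmk-led and Scin-led members. The Il7r-led cells numbered 38 to 116 per library and were defined on the same cells, so these are descriptions. The 5 separated genes are examples, and the share of all genes that separate in this way was not counted.

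Cd6, which the rule did not use but which belongs to the same contrast, stood at 49.0, 56.1 and 50.6 CPM in members of the WT duodenum, jejunum and ileum and at 24.4, 33.5 and 32.5 in KO. These values rest on 265, 265 and 281 UMIs in WT and 97, 152 and 207 in KO. All 3 KO values lay below all 3 WT values. The 3 segments of a genotype share 1 pool, so this is 1 comparison of pools, and the share of all genes that separate in this way was not counted. The other T cells held 15.8, 18.8 and 19.6 in WT and 9.55, 12.5 and 15.8 in KO. Within the other cells Cd6 was near 0 in the Fcgr3 Tyrobp Spp1 class, at 0.850 to 2.84, while the Tcf7 Id3 Batf3 class had 38.3, 35.8 and 32.1 in WT and 34.2, 30.8 and 28.8 in KO. Members thus lay above the first class in all 6 libraries, while the KO duodenum members lay below the KO duodenum cells of the second.

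Beyond the rule genes, 7754 genes averaged at least 10 CPM. In the comparison of members with all other T cells of their own library, 23 of them (0.297%) were more than 1.5-fold higher in each of the 6 libraries and 64 (0.825%) lower, after 10 CPM were added to both levels. Since the cells were chosen on measured values of this same contrast, the genes are described and not tested. The 10 genes with the largest differences in each direction among those reaching 50 CPM are given next.

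Among the higher genes, Lat, the scaffold adaptor phosphorylated by Zap70, stood at 571, 615 and 635 CPM in members of the WT duodenum, jejunum and ileum and 599, 607 and 626 in KO, against 285 to 374 in the other T cells. Themis, a signalling protein of thymocyte selection, stood at 59.1 to 72.1 against 25.9 to 30.6, and Cd226, the activating receptor DNAM-1, at 85.2 to 106 against 43.6 to 55.6. Cish, an inhibitor of cytokine signalling that is induced by Stat5, stood at 177 to 215 against 97.8 to 122. In all 4 genes the lowest member library lay above the highest value of the other cells. Their choice for a large ratio in every library made this likely from the start. The galectin Lgals1 varied most, at 68.8, 119 and 148 in WT and 129, 144 and 154 in KO, against 15.8 to 58.8. Emp3, Plac8, Gadd45b, Mospd1 and Epsti1 completed the 10, with average ratios of 2.35, 1.99, 1.93, 1.71 and 1.71. Plac8 separated the members from 1 class only, since the Tcf7 Id3 Batf3 cells held 390 to 531 and the members 387 to 544. Nor were Lat, Cd226 or Cish more than 1.5-fold higher than in the Tcf7 Id3 Batf3 cells in all 6 libraries.

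Among the lower genes, Klrb1a, an NKR-P1 receptor, stood at 4.68 to 7.03 CPM in members against 82.6 to 123 in the other T cells, and Kit, the stem cell factor receptor, at 11.1 to 17.6 against 78.5 to 93.0. Xcl1, the chemokine lymphotactin, stood at 79.6, 32.2 and 69.1 in the WT duodenum, jejunum and ileum and 133, 42.7 and 45.1 in KO, against 254 to 426 in the other T cells. Il2rb stood at 212 to 252 against 503 to 642, and Fcer1g, the FcR γ chain that carries an activating motif, at 991 to 1168 against 2246 to 2852. Gm156, Cd200r2, Itgad, Cela1 and Itih5 completed the 10, with the other T cells 7.86-fold, 2.67-fold, 3.23-fold, 2.41-fold and 2.39-fold above the members. Several of these genes marked only 1 of the other classes. Il2rb stood at 776 to 912 in the Fcgr3 Tyrobp Spp1 cells and at 134 to 166, below the members, in the Tcf7 Id3 Batf3 cells.

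**Figure D3:**
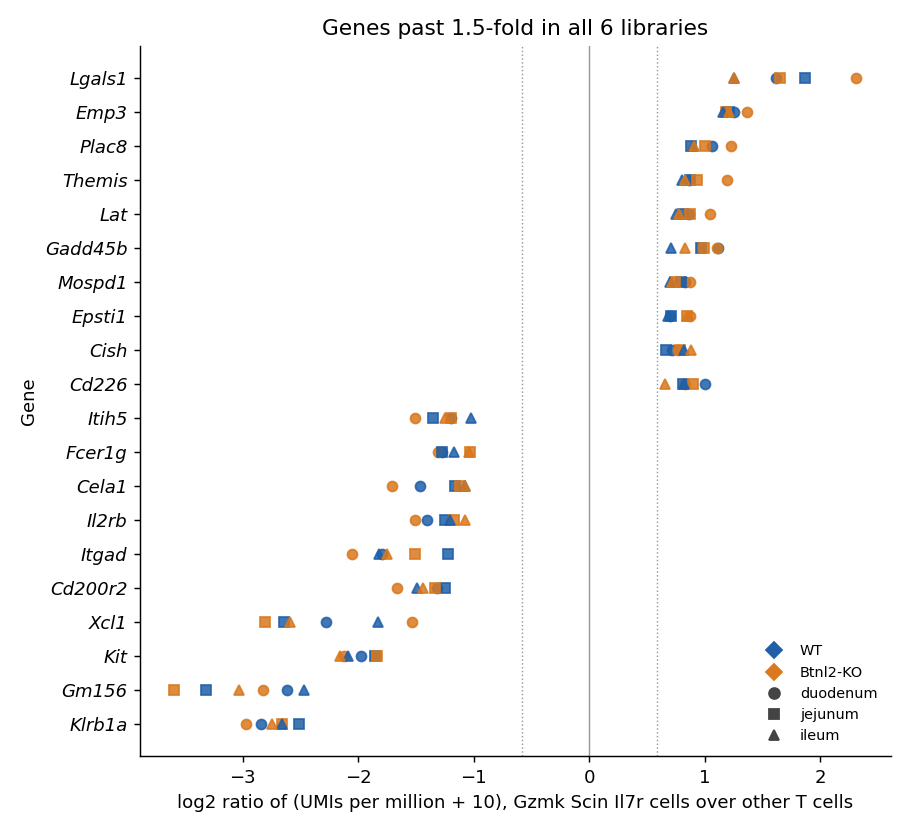
Log2 ratio (horizontal axis) of the level in Gzmk Scin Il7r cells over that in the other T cells of the same library, after 10 CPM were added to each, for the 20 named genes outside the rule (vertical axis). Each point is 1 library (WT blue, Btnl2-KO orange, circles duodenum, squares jejunum, triangles ileum), dotted lines mark 1.5-fold, and the libraries lie far apart for Xcl1 and Gm156 and close together for Mospd1 and Emp3, with standard deviations of 0.50, 0.42, 0.07 and 0.07.

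Against the Fcgr3 Tyrobp Spp1 cells alone, 57 genes (0.735%) were higher and 113 (1.46%) lower in all 6 libraries, and against the Tcf7 Id3 Batf3 cells alone 136 (1.75%) were higher and 117 (1.51%) lower. Gzmb and Thy1 are given as examples. Gzmb stood at 7060 to 10376 in the members, 6970 to 8916, an overlapping range, in the Fcgr3 Tyrobp Spp1 cells and 123 to 296 in the Tcf7 Id3 Batf3 cells. Thy1 stood at 293 to 360, 23.4 to 51.2 and 490 to 581 in the same order, so the members lay between the classes.

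Genes were also counted in lists by function. Of 10 measured genes of granzymes and cytolytic granules, 0 were past 1.5-fold against all other T cells, with a median log2 ratio of 0.21 against -0.01 for all 7754 genes, and 5 were higher against the Tcf7 Id3 Batf3 cells. Perforin, Prf1, stood at 71.8 to 92.1 in members and 48.9 to 60.2 in other T cells. Of 7 genes of the gelsolin family and actin 0 were past 1.5-fold in either direction (median 0.02), and gelsolin itself, Gsn, stood at 52.6 to 58.8 against 50.9 to 60.5. Among 14 genes of common γ chain receptors and their signalling, Cish was higher and Il2rb lower (median -0.09). Of 5 measured genes of the CD5, CD6 and costimulation list, Cd6 and Cd226 were higher (median -0.39). Of 10 adaptors and kinases near the receptor, Lat was higher and Fcer1g lower (median 0.04). NK receptors had 3 of 8 lower, Klrb1a, Klrb1c and Klra5 (median -0.53). Inhibitory receptors had 1 of 7 lower, Lag3, at 182 to 297 against 385 to 524 (median of the list -0.42), and transcription factors of innate-like T cells 1 of 10 lower, Irf8 (median 0.01). Type 1 genes had 1 of 7 lower, Xcl1 (median 0.21), and the 3 innate lymphoid and NK markers had Klrb1c and Kit lower (median -0.88).

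Other lists showed less. Residency and homing (13 genes), immediate early (9), interferon-induced (8), cell cycle (9), ribosomal protein (8), memory and naive (2) and type 17 (1) had 0 genes past 1.5-fold in either direction, with medians of 0.12, -0.21, 0.21, 0.41, -0.09, -0.18 and 0.70. Rora, the type 17 gene measured, stood at 39.4 to 46.9 in members and 17.1 to 24.97 in other T cells, and Il17a and Il17f were at 0 in members. Ccr7, a homing receptor of naive and recirculating cells, stood at 0 to 0.440. Cd8b1, the 1 measured αβ T cell gene, was higher, at 45.2 to 62.3 against 9.73 to 20.9. Epithelial genes, which can enter such libraries as free RNA or as attached cells, summed to 124 to 191 CPM in members and 164 to 228 in other T cells. Of the 3 measured 1, Epcam, was lower. The source of these transcripts was not tested. The summed B cell list stood at 103 to 115 against 83.8 to 92.9, nearly all of it Cd79b, and the myeloid list at 7.22 to 10.8 against 6.85 to 10.5.

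The segment played no part in the rule, so ileum and duodenum members were compared by edgeR's quasi-likelihood test on UMIs summed per library, with genotype as the mouse pool in the model. With 2 pools per segment and 2 residual degrees of freedom the test leans on a spread shared between genes. Its p-values measure only how far segment differences vary between the WT pool and the KO pool, with counting error. They do not measure the spread between mice of 1 genotype. Of 10262 genes tested, 61 (0.594%) were higher in the ileum at an adjusted p below 0.05 and more than 1.5-fold, and 69 (0.672%) lower. The median log2 change of all genes was -0.01. Jejunum against duodenum gave 23 higher (0.224%) and 16 lower (0.156%). The same fit in the other T cells, which held more cells and UMIs, called 177 of 11507 genes higher and 215 lower in the ileum. The counts in the members depended on the tool, since DESeq2 called 8 higher and 15 lower in the ileum. By default it gave an adjusted p to only 2702 of the 10262 genes, and with the p-values of all genes adjusted together it called 15 and 22. Leaving out a library moved them by more than 1.5 times in 2 cases, to 34 higher and 45 lower without the WT ileum and 29 and 39 without the KO ileum.

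Among the genes that rose from duodenum to ileum were Pim2, Bcl3 and Vim. Pim2, a survival kinase, stood at 127 and 155 CPM in the WT and KO duodenum, 241 and 217 in the jejunum and 253 and 289 in the ileum, a log2 change from duodenum to ileum of 0.999 ± 0.066 (SE, adjusted p = 7.98e-12). The duodenum values lay below all others. Bcl3, an atypical IκB protein, rose by 1.08 ± 0.08 (adjusted p = 3.51e-11), from 63.3 and 60.5 in the duodenum to 105 and 112 in the jejunum and 114 and 142 in the ileum. Vim, the intermediate filament vimentin, rose by 0.65 ± 0.04 (adjusted p = 7.98e-12), from 462 and 520 to 565 and 619 and then 733 and 755. All 3 were higher in the ileum than in the duodenum within WT and within KO, and their calls held under each of 14 alternatives.

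Socs3, an inhibitor of cytokine receptor signalling, rose by 3.18 ± 0.28 (adjusted p = 2.58e-09). It stood at 1.295 and 4.02 CPM in the WT and KO duodenum, 8.26 and 13.2 in the jejunum and 22.7 and 21.5 in the ileum. Htra3, a secreted serine protease, rose by 1.36 ± 0.14 (adjusted p = 4.49e-08), from 13.1 and 14.3 in the duodenum to 32.6 and 36.1 in the ileum. Glrx, a glutaredoxin, rose by 0.76 ± 0.06 (adjusted p = 7.09e-10). Tmem176b, a membrane protein, rose by 4.23 ± 0.43 (adjusted p = 3.02e-08), but from 0.370 and 1.005 to 13.3 and 11.0, and it was found in only 0.0971% to 1.22% of members per library. DESeq2 with its default settings gave Socs3, Htra3 and Tmem176b no adjusted p, and with the p-values of all genes adjusted together it called all 3. Cela1, a serine protease of the elastase family, rose by 0.66 ± 0.08 (adjusted p = 8.01e-07), a call lost without the KO duodenum or the KO ileum. Lag3, an inhibitory receptor, rose by 0.59 ± 0.06 (adjusted p = 3.01e-08) and lay so near 1.5-fold that the call was lost in 8 of 14 alternatives.

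Among the genes that fell were Fosb and Jun, subunits of the transcription factor AP-1. Fosb fell by 1.72 ± 0.10 on the log2 scale (adjusted p = 1.82e-13), from 78.6 and 87.7 CPM in the WT and KO duodenum through 61.8 and 69.1 in the jejunum to 25.2 and 23.7 in the ileum. Jun fell by 1.07 ± 0.06 (adjusted p = 1.82e-13), from 269 and 297 to 128 and 133. Hmgcs1 and Fdps are enzymes of the cholesterol synthesis pathway. Hmgcs1 fell by 0.93 ± 0.07 (adjusted p = 1.37e-10) and Fdps by 0.74 ± 0.05 (adjusted p = 3.73e-11), with both ileum values below all 4 others for each. Ighm (ENSMUSG00000076617), which encodes the immunoglobulin μ heavy chain, fell by 1.31 ± 0.09 (adjusted p = 2.86e-11), from 120 and 122 to 55.1 and 39.9. The heat shock genes Hspa1a and Hspa1b changed by -3.75 ± 0.28 (adjusted p = 7.49e-11) and -3.49 ± 0.32 (adjusted p = 6.02e-09).

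Fabp6, Apoa1 and Apoa4, also called between the segments, are known from enterocytes. Fabp6, the ileal bile acid binding protein, had 0 UMIs in duodenum members and 71 in ileum members, at least 18.6-fold higher against a limit of 3 UMIs over both duodenum libraries, and the other T cells of the ileum held 8.28 and 10.4 CPM against 7.38 and 4.71 in members. DESeq2 did not call Fabp6 when the p-values of all genes were adjusted together. Apoa1 fell by 4.56 ± 0.30 (adjusted p = 7.98e-12), but 262 of its 303 UMIs in WT duodenum members lay in 1 cell, without which its level there was 7.61 in place of 56.1 CPM, and the change was -2.16 (adjusted p = 0.00680) in cells with a mitochondrial share of at most 10%. Apoa4 had 111 UMIs in duodenum members, 94 of them in 1 cell, and 0 in ileum members, at least 47.0-fold lower against 3 UMIs over both ileum libraries and at least 7.21-fold lower without that cell.

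**Figure D4:**
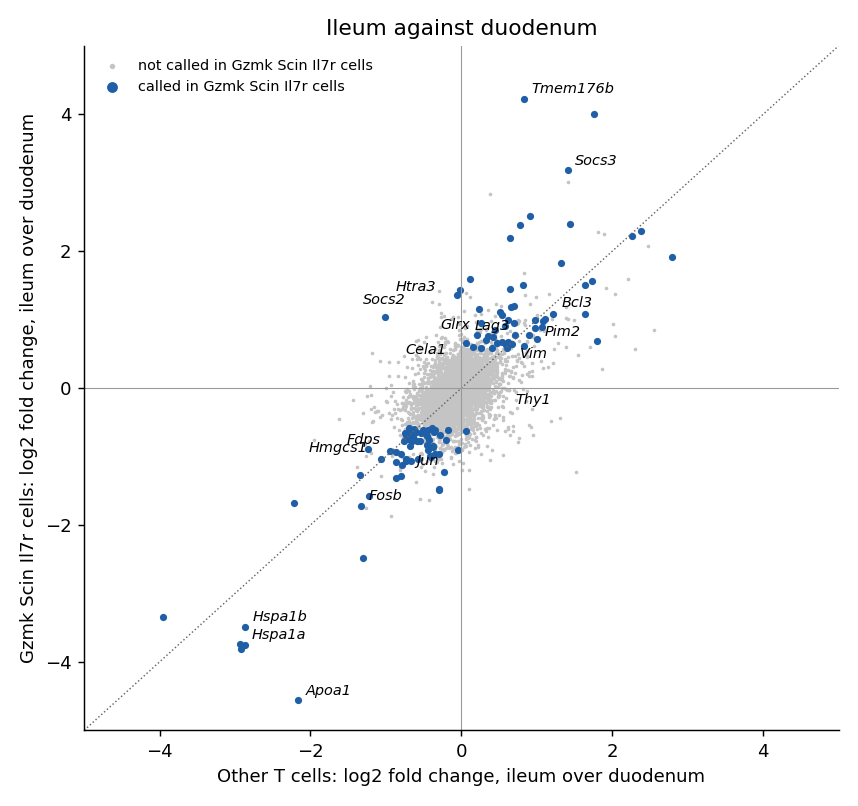
Log2 fold change from duodenum to ileum of each gene in Gzmk Scin Il7r cells (vertical axis) against that in the other T cells (horizontal axis), with blue points for genes called in the former and a dotted line where both are equal. Genes fitted in both are drawn, and 6 lie outside the axis limits of 5. Pim2, Bcl3, Vim, Fdps and Hmgcs1 lie near the line, Socs3 and Tmem176b lie above it, and Thy1, not called in the members at -0.02, rose by 0.63 in the other T cells.

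Of the gene lists, granzymes and cytolytic granules had 0 of 10 genes past 1.5-fold between ileum and duodenum. At any fold 6 of 10 passed an adjusted p of 0.05, where 5.02% of all genes did. Gzmb rose by 0.57, from 7060 and 7258 CPM in the WT and KO duodenum through 9221 and 8955 to 10376 and 10194, and Nkg7, Gzma, Prf1 and Srgn rose by 0.31, 0.28, 0.28 and 0.20, while Fasl fell by 0.24. At any fold 5 of 7 genes of the gelsolin family and actin also passed an adjusted p of 0.05. So did 6 of 16 genes of common γ chain signalling and 4 of 11 interferon-induced genes. Cell cycle (12 genes) and ribosomal protein (8) had 0. The calls past 1.5-fold in the other lists were few. Socs2 and Socs3 rose among 16 genes of common γ chain signalling, Lag3 and Ctla4 among 9 inhibitory receptors, Cd5 among 9 costimulatory genes, Klrc1 among 11 NK receptors, Batf among 11 transcription factors, Capg among 7 genes of actin, Cd68 among 2 myeloid genes and Eomes among 10 type 1 genes and 4 innate lymphoid and NK genes, with Xcl1 falling. Cd5, Cd68 and Eomes were at 7.38, 7.38 and 8.48 CPM or less in every member library. Fosb and Jun fell among 11 immediate early genes and Ifit1 and Ifi27l2a among 11 interferon-induced genes. Residency and homing (13 genes), proximal signalling (10), cell cycle (12), ribosomal protein (8), memory and naive (5), epithelium (4), type 17 (2), αβ T cell (1) and B cell (1) had 0. Cd6 changed by 0.22 ± 0.11 (adjusted p = 0.266).

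A second model over members and other T cells of the same libraries tested whether a segment difference was unlike that of the other cells. It called 55 of 10262 genes (0.536%) with a more positive ileum change in members and 24 (0.234%) with a more negative one at an adjusted p below 0.05. The 5 with the lowest adjusted p were Gzmb (0.53 ± 0.04), Thy1 (-0.64 ± 0.05), 1810011H11Rik (1.17 ± 0.10), Cd7 (0.30 ± 0.03) and Bcl2 (0.54 ± 0.05), with adjusted p = 8.35e-10, 1.85e-09, 1.35e-08, 1.85e-08 and 7.00e-08. Thy1 stood in members at 360 and 313 CPM in the WT and KO duodenum and 338 and 303 in the ileum, while the other T cells went from 155 and 145 to 236 and 215. Bcl2, which blocks apoptosis, went from 278 and 282 to 225 and 213 in members and from 514 and 529 to 307 and 261 in the others. The make-up of the other cells also changed, with the Fcgr3 Tyrobp Spp1 class at 42.7% and 48.4% of T cells in the WT and KO duodenum and 30.8% and 35.2% in the ileum, and the Tcf7 Id3 Batf3 class at 13.8% and 12.8% against 17.9% and 19.8%. Compared with the Tcf7 Id3 Batf3 cells alone, Gzmb and Bcl2 changed sign, at -0.55 and -0.20, and 11 and 8 genes were called. DESeq2 called 2 and 1 (50 genes at an unadjusted p below 0.05), and without cells carrying at least 2 Cd8b1 UMIs 34 and 14 were called. Without the WT duodenum, KO duodenum, KO jejunum or KO ileum library 35, 26, 33 and 35 genes were called in the positive direction.

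Btnl2-KO and WT members were compared segment by segment as values with no test. Of 7653 genes averaging at least 10 CPM in members, 0 (0%) were more than 1.5-fold higher in KO in all 3 segments and 0 (0%) lower. Cd6 came closest among the class markers, with log2 differences of -0.78, -0.60 and -0.51 in the duodenum, jejunum and ileum after 10 CPM were added. With 1 CPM added, 2 genes were lower in all 3 segments, Cd6 and Apoa1, and the Apoa1 difference rests on single cells of the WT duodenum and jejunum. In the Tcf7 Id3 Batf3 cells Cd6 was also lower in KO in all 3 segments, by a smaller margin, at 34.2, 30.8 and 28.8 CPM against 38.3, 35.8 and 32.1 in WT.

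The bulk libraries measured the same transcripts in whole γδ IELs with replicates, where fewer cells of a class and less RNA per cell cannot be told apart. Btnl2 stood at 2.47 to 9.89 CPM in the WT libraries and 0 to 0.123 in the KO libraries. Cd6 stood at 27.2 to 57.3 CPM in the 4 WT duodenum libraries (37.7 ± 13.9, SD, n = 4) and at 16.2 to 29.5 in the 3 KO libraries (21.1 ± 7.30, SD, n = 3). The groups overlapped, since the highest KO library lay above the 2 lowest WT libraries, at 27.2 and 28.5. The log2 difference was -0.84 ± 0.29 (SE) with an adjusted p = 0.997. In the jejunum Cd6 stood at 46.7 to 93.8 in WT (67.4 ± 24.1, SD, n = 4) and 29.2 to 59.8 in KO (40.9 ± 13.6, SD, n = 4), a difference of -0.68 ± 0.29 with an adjusted p = 0.583. In the ileum it stood at 32.5 to 55.4 in WT and 42.5 to 54.1 in KO, a difference of 0.06 ± 0.22 with an adjusted p = 0.949, where the single-cell values over all T cells were 28.1 in WT and 19.6 in KO. None of these differences passed the test after adjustment over all genes. The unadjusted p-values of Cd6 by edgeR were 0.0158, 0.0447 and 0.806 from duodenum to ileum.

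Gzmk, Scin and Il7r also passed the test in none of the 4 bulk comparisons, none of which set the jejunum against another segment. Gzmk in the duodenum stood at 86.2 to 140 CPM in WT and 71.6 to 89.4 in KO, a log2 difference of -0.43 ± 0.18 with an adjusted p = 0.997, and its differences in the jejunum and ileum were 0.10 ± 0.27 and -0.03 ± 0.24. The unadjusted p-values of Gzmk by edgeR were 0.0329, 0.725 and 0.914 from duodenum to ileum, and those of Scin and Il7r were 0.456 or above. Scin differences between KO and WT were -0.05 ± 0.27, -0.01 ± 0.15 and 0.13 ± 0.29 from duodenum to ileum, and those of Il7r were -0.04 ± 0.22, -0.0034 ± 0.36 and 0.27 ± 0.34. Of the 12680, 12594 and 12604 genes tested in the 3 segments, 0 (0%), 0 (0%) and 0 (0%) were higher and 1 (0.00789%), 1 (0.00794%) and 0 (0%) lower in KO by edgeR. DESeq2 called 1, 1 and 2 higher and 3, 1 and 219 lower, and 263, 804 and 1108 genes had an unadjusted p below 0.05 by edgeR. The 1 gene lower by edgeR in the duodenum and in the jejunum was Btnl2 itself (adjusted p = 0.0124 and 0.0260). In the ileum Btnl2 differed by -5.92 ± 0.87 and did not pass by edgeR (adjusted p = 0.263), though it did by DESeq2 (adjusted p = 0.00018). The edgeR count of 0 in the ileum thus missed the deleted gene.

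**Figure D5:**
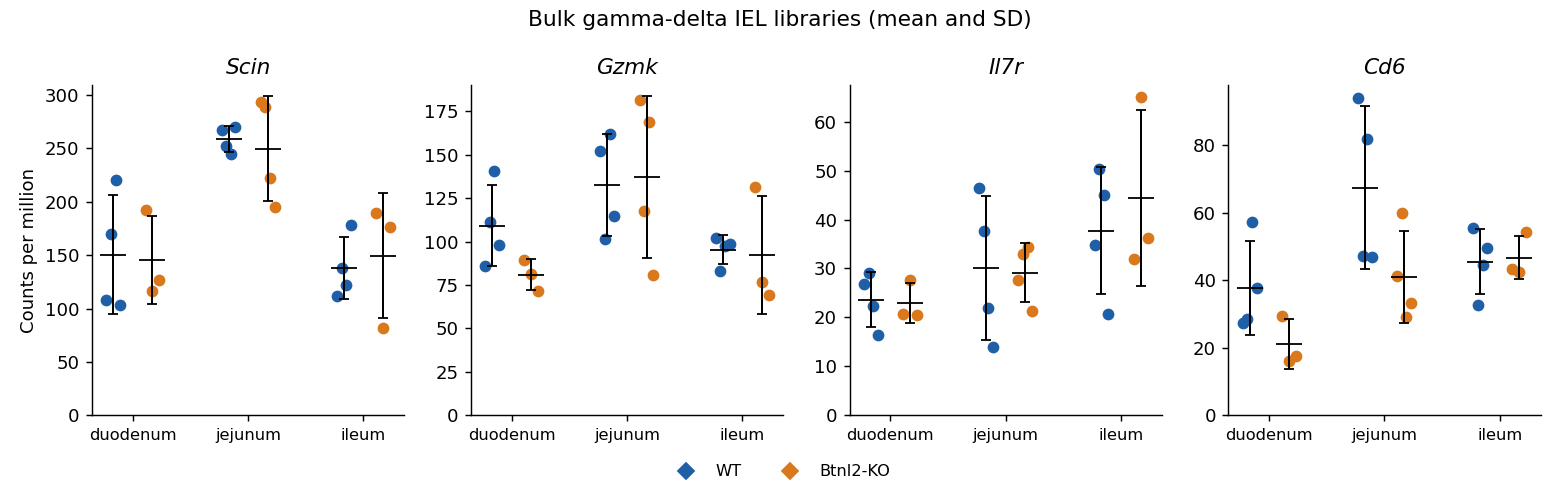
CPM (vertical axis, from 0) of Scin, Gzmk, Il7r and Cd6 in bulk γδ IEL libraries by segment, with 1 point per library, WT in blue, Btnl2-KO in orange, and black bars for the mean and standard deviation. Cd6 in the duodenum lies at 27.2 to 57.3 in WT and 16.2 to 29.5 in KO, and the Cd6 ranges of the 2 genotypes overlap in all 3 segments.

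Between the WT ileum and WT duodenum the bulk libraries had 144 of 12535 genes higher (1.15%) and 127 lower (1.01%). Il7r stood at 16.4 to 29.1 CPM in the duodenum and 20.7 to 50.4 in the ileum, a log2 difference of 0.67 ± 0.26 with an adjusted p = 0.361. Gzmk, Scin and Cd6 differed by -0.19 ± 0.16, -0.13 ± 0.24 and 0.28 ± 0.24. The bulk jejunum was not tested against the other segments. Scin stood there at 245 to 270 CPM in WT, above the 103 to 221 of the duodenum and the 112 to 178 of the ileum. The WT jejunum ranges of Gzmk, Il7r and Cd6 overlapped those of the duodenum. The single-cell Scin levels over all T cells, given above, were not highest in the jejunum. Of the genes named above for the members' segment difference, Socs3 rose by 1.79 ± 0.32 (adjusted p = 0.0120), Hspa1a fell by 2.44 ± 0.53 (adjusted p = 0.0369) and Hspa1b by 2.49 ± 0.53 (adjusted p = 0.0333), and the enterocyte genes Fabp6, Apoa1 and Apoa4 passed the test in the same directions. Pim2 (0.99 ± 0.30, adjusted p = 0.156), Bcl3 (0.77 ± 0.28, adjusted p = 0.308), Fdps (-0.67 ± 0.16, adjusted p = 0.0616), Hmgcs1 (-0.56 ± 0.19, adjusted p = 0.231) and Fosb (-0.45 ± 0.51, adjusted p = 0.846) did not pass it. Nor did Tmem176b, Vim, Htra3, Glrx and Jun, at 0.70, 0.31, 0.10, 0.07 and -0.25, or Lag3 and Cela1, at -0.04 and -0.15, which had the opposite sign to the members. DESeq2 called Pim2 (adjusted p = 0.0210) and Fdps (adjusted p = 0.00182) in these libraries. With all 22 libraries in 1 fit Fdps passed (adjusted p = 0.0266), while Hspa1a and Apoa1 did not (adjusted p = 0.0733 and 0.223).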

How the data were processed

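The authors deposited UMI counts per cell for the 6 single-cell libraries, filtered to cells, and expected counts per gene from RSEM for the bulk libraries. Bulk expected counts were rounded to whole numbers, and 1 bulk column that matched no sample label was not used. Doublets were not called. Cells in the top 2% of UMIs were left out as an alternative.

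Members and gene lists were chosen with earlier results of these data known. Levels are CPM of the summed cells or of the library. Segment differences were tested with edgeR 4.0.16 (quasi-likelihood, TMM, Benjamini-Hochberg) on UMIs summed per library, for genes with at least 10 counts in at least 2 libraries. Class-by-segment terms used 12 sums with library as a block. Bulk groups were compared pairwise, where bulk totals were 13444958 to 30029485 counts (median 18277158). The alternatives were DESeq2 1.42.0, limma-voom 3.58.1, other scalings, filters and left-out libraries. On simulated counts with 200 changed genes the segment test recovered 81% of log2 changes of 1 and 100% of changes of 2, the class-by-segment test 44% and 99%, and the test of KO against WT in the bulk ileum 15% and 98%. False calls numbered 11, 6 and 3. The spread set for the simulated single-cell counts was larger than that fitted in the members. Changed genes were drawn only from genes with more counts than the filter asks, so the rates do not carry over directly to these data.

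Genes named were the markers and rule genes, members of 23 lists by function and cell type, up to 10 per direction with the largest ratio in every library, up to 10 per direction with the lowest adjusted p between ileum and duodenum, and 5 for class by segment. Il7r-led cells and single cells rich in Apoa1 were singled out after their values were seen. Some genes that these rules name are not reported here.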

Additional observations from a re-analysis of the deposited data

Results flagged for a closer look

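For 21 named genes or list genes, the change from duodenum to ileum differed between the Gzmk Scin Il7r cells and the other T cells by edgeR's test of the difference (adjusted p below 0.05). The values that follow are the log2 change in the former minus that in the latter. The difference was positive for Tmem176b (3.33), Socs2 (2.08), Socs3 (1.79), Htra3 (1.43), 1810011H11Rik (1.17), Entpd1 (0.69), Cela1 (0.60), Bcl2 (0.54), Gzmb (0.53), Glrx (0.41), Il2rb (0.34), Cd7 (0.30) and Fcer1g (0.20). It was negative for Klrk1 (-1.63), Lgals1 (-1.12), Thy1 (-0.64), Ighm (ENSMUSG00000076617, -0.44), Gadd45b (-0.40), Jun (-0.31), Plac8 (-0.24) and Lat (-0.18).

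Socs2, an inhibitor of growth factor and cytokine signalling, moved in opposite directions. It stood at 4.81 and 6.03 CPM in members of the WT and KO duodenum and 9.36 and 12.4 in the ileum, and in the other T cells at 10.7 and 11.1 and then 4.72 and 5.67. Lgals1 rose in both, from 68.8 and 129 to 148 and 154 in members and from 15.8 and 17.9 to 56.2 and 58.8 in the others. Klrk1, which encodes the activating receptor NKG2D, went from 9.81 and 5.53 to 8.996 and 14.3 in members and from 3.19 and 3.34 to 12.2 and 19.4 in the others.

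The make-up of the other T cells changes along the gut, so the 21 differences were also taken against each class alone, an alternative chosen after seeing the data. Against the Fcgr3 Tyrobp Spp1 cells 20 of the 21 kept their sign and 13 passed the test. Against the Tcf7 Id3 Batf3 cells 16 kept their sign and 3 passed. Socs3 was the 1 gene that passed against both with the same sign, at 1.71 and 2.33 (adjusted p = 0.00551 and 0.000397). Its level was 35.7 to 67.4 CPM in the Tcf7 Id3 Batf3 cells and 1.295 to 22.7 in the members.

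Single libraries far from the rest of their group were looked for in 16 groups of 4 bulk libraries (Scin, Gzmk, Il7r and Cd6), and 0 were found, where chance alone gives about 1 in 20.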

How the results depend on the processing

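No paired analysis was possible because the labels give each library a number of its own, shared by no library of another group. The single-cell fits carry the mouse pool or the library as a term. Depth limits what low genes can show: Cd6 rests on 97 to 281 UMIs per library, and thinned levels on 8 to 40 in members. DESeq2 and edgeR gave different counts. Between ileum and duodenum members, DESeq2 gave 7560 genes no adjusted p, and the rest of the cause was not tested. The settings without Cd8b1 cells, with 1 CPM added, against single classes and of DESeq2 with all p-values adjusted together were chosen after seeing the data.

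Shares of members with a minimum of 3 UMIs were 19.8%, 19.2% and 21.1% in WT and 15.2%, 16.4% and 17.2% in KO (duodenum, jejunum, ileum), and after thinning 11.9%, 10.9% and 10.6% against 8.55%, 8.46% and 8.24%. The other 36 shares stayed within their intervals. Thinned Cd6 in members was 55.6, 68.7 and 62.9 CPM in WT and 39.9 and 16.6 in the KO duodenum and jejunum. Other T cells then had 23.4, 23.4 and 26.0 in WT and 14.9, 16.7 and 18.6 in KO, so members and others lay at a like level in the KO jejunum, and a minimum of 3 UMIs gave 14.4 there in the others.

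With 1 CPM added, 37 genes were higher and 108 lower in members in all 6 libraries, and 2 lower in KO in all 3 segments. DESeq2 called 8 and 15 genes between ileum and duodenum, and 15 and 22 with all p-values adjusted together, and leaving out a library gave 29 to 83 higher and 39 to 87 lower. Of values for named genes in this comparison, 5 under other settings and 6 without a library lost their call and none turned. Class by segment gave 2 and 1 genes with DESeq2 either way, 86 and 50 without a filter, 39 lower with limma-voom, 34 and 14 without Cd8b1 cells, 11 and 8 against the Tcf7 Id3 Batf3 cells, where Gzmb (-0.55) and Bcl2 (-0.20) turned, and 26 to 40 and 14 to 30 with a library left out (26 without the KO duodenum, 14 without the KO jejunum).

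In bulk, WT ileum against duodenum gave 291 and 211 with DESeq2, 58 and 60 with all 22 libraries in 1 fit, and 88 to 429 and 68 to 189 with a library left out (429 and 189 without WT ileum library 1, 88 and 68 without WT ileum library 3, 93 and 81 without WT ileum library 4, 81 lower without WT duodenum library 1). KO against WT gave 1 and 3 (duodenum), 1 and 1 (jejunum) and 2 and 219 (ileum) with DESeq2, 1 higher in the jejunum and 1 and 1 in the ileum with all 22, and with a library left out 0 to 1 and 0 to 2, 0 and 0, and 0 and 0 to 60 (60 without WT ileum library 1). Values near 0 turned when a library was left out: Scin ranged from -0.27 to 0.13 between WT segments and from -0.29 to 0.20, -0.10 to 0.047 and -0.068 to 0.40 between genotypes in duodenum, jejunum and ileum, Il7r from -0.21 to 0.084, -0.24 to 0.28 and -0.16 to 0.46, Gzmk from -0.061 to 0.23 and -0.36 to 0.15 in jejunum and ileum, and Cd6 from -0.087 to 0.17 in the ileum. Il7r in the jejunum was 0.0042 with DESeq2 and 0.0040 with other size factors. Cd6 kept its sign without any 1 library in the duodenum (-1.14 to -0.55) and jejunum (-0.91 to -0.48).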
